A study of Mus musculus with 6 samples.

Results

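The genes described here are 35 transcripts known from macrophages, monocytes and dendritic cells, measured in sorted regulatory T cells of the mouse spleen. Group differences did not enter the rule: a gene was taken from the probe sets that carry its symbol alone, and where there were several, the probe set with the highest mean represented it. In this way 34 of the 35 were measured, among 18193 genes in all, and Clec9a was not analysed here.

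All 6 mice were females of the NOD strain, a model of autoimmune diabetes, and all carried the BDC2.5 T cell receptor transgene and a Foxp3 reporter with GFP. The 3 treated mice were RAG1o/o, without a working RAG1 gene, and received 37.5 µg of the anti-CD3 antibody clone KT3 intravenously, daily for 5 days, beginning at an age of 17 days. They were 28 or 29 days old when the cells were taken, which the labels give as 11 or 12 days after treatment. The 3 untreated mice were RAG1+/o and of the same ages. RAG1 is needed to assemble antigen receptor genes, so RAG1o/o mice make no B cells and no T cells other than those with the transgenic receptor. Genotype and antibody differed together and cannot be told apart. From each mouse, spleen cells that were CD4+ and GFP+ and lacked B220, CD8a and CD11b or CD11c were sorted onto 1 array, so n = 3 mice per group and p-values measure the spread between mice.

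Macrophages, monocytes and dendritic cells are the phagocytes and antigen-presenting cells that share the spleen with T cells. Their development runs through the transcription factor PU.1, encoded by Spi1, and through the receptors for CSF1 and FLT3 ligand. Macrophages of the splenic red pulp clear old red cells and recycle their iron, while dendritic cells carry antigen to T cells. Sorted CD4+ T cells are not a usual source of lysozyme, the CSF1 receptor or C1q. Several of the genes are shared with other cells: Fcer1g, Tyrobp and Fcgr3 with NK cells and neutrophils, Lyz2, Cebpb, Clec4n and Itgam with neutrophils, Irf8 with B cells and Vcam1 with stroma.

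Markers of the sorted population were looked at first. On the log2 scale of the authors' RMA intensity, Foxp3 lay between 9.95 and 12.44 on the 6 arrays and Cd4 between 9.10 and 10.41. Il2ra lay between 9.53 and 10.61 and Cd3e between 11.62 and 12.16, while Cd8a lay between 6.83 and 7.16. Transcripts of other cells were not all low. The mean of 15 B cell genes was 9.70 and 9.72 in untreated replicates 1 and 2 and 6.54 to 7.06 on the other arrays. Lyz2 ran from 8.01 to 13.42. Array medians ran from 85.3 to 92.4 in linear intensity, highest in treated replicate 2. The mean correlation of an array with the others ran from 0.955 to 0.974, lowest in treated replicate 2. The interquartile range of log2 intensity was 2.59 in treated replicate 2 and 2.82 to 3.01 on the other arrays. The 3′ minus 5′ difference of the Gapdh control, a measure of RNA quality and amplification, was 2.02 in untreated replicate 3 and 3.23 to 4.10 on the other arrays, and that of the actin control 0.92 against 1.31 to 3.62. The array file numbers in the labels place same-numbered arrays of both groups next to each other and both replicate 3 arrays apart from the rest, and no label says what the numbers stand for. The part of these differences in the results below was not tested. The number of arrays limits the precision.

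For 23 of the 34 genes untreated replicate 3 was the lowest of the 6 samples, against 13.3% of all genes, and for Lyz2, Csf1r and Fcgr3 it lay over 3 log2 units below the other untreated mice. The other 11 genes, among them Ctss, Cst3, Fcgr1, Axl and Mertk, were lowest on another array. The mean of the 34 genes was 8.64, 7.82 and 8.59 on the arrays of treated mice 1, 2 and 3 (called treated replicates below) and 8.26, 8.54 and 6.94 on those of untreated mice 1, 2 and 3. The samples did not sort by group: treated replicates 1 and 3 and untreated replicates 1 and 2 stood together, treated replicate 2 lay below them and untreated replicate 3 far below. In 19 of 34 genes untreated replicate 3 lay at least 1 log2 unit, which is 2-fold, below the mean of the other untreated arrays, against 4.9% of all genes. In 11 of 34 it lay that far below each of the other 5 arrays, against 0.984% of all genes. In a sorted bulk sample, fewer cells of a type and less RNA per cell cannot be told apart.

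Treated replicate 2 shared this pattern in a milder form. This array also had the lowest mean correlation with the others and the narrowest interquartile range, and their part in the pattern was not tested. It was the lowest of the treated arrays in 26 of 34 genes, against 35.3% of all genes, and lay at least 1 log2 unit below the mean of the other treated arrays in 15 of 34, against 7.19%. Of the 19 genes so placed in untreated replicate 3 and the 15 in treated replicate 2, 13 were in both, 68.4% of the first list and 86.7% of the second. The share of all genes in both was not counted. The median gene of the 34 was 1.21 log2 units lower in untreated replicate 3 (median −1.21, against +0.04 over all genes) and differed by −0.93 in treated replicate 2 (+0.06 over all genes). The median span of the 34 from lowest to highest array was 1.79 log2 units (0.75 over all genes), and the SD of the untreated mice exceeded that of the treated mice in 23 of 34, against 34.8% of all genes. On at least 3 arrays, 23 of 34 exceeded log2 7, against 53.2% of all genes. These counts of low arrays were formed after the array values had been seen and describe these 2 arrays.

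**Figure D1:**
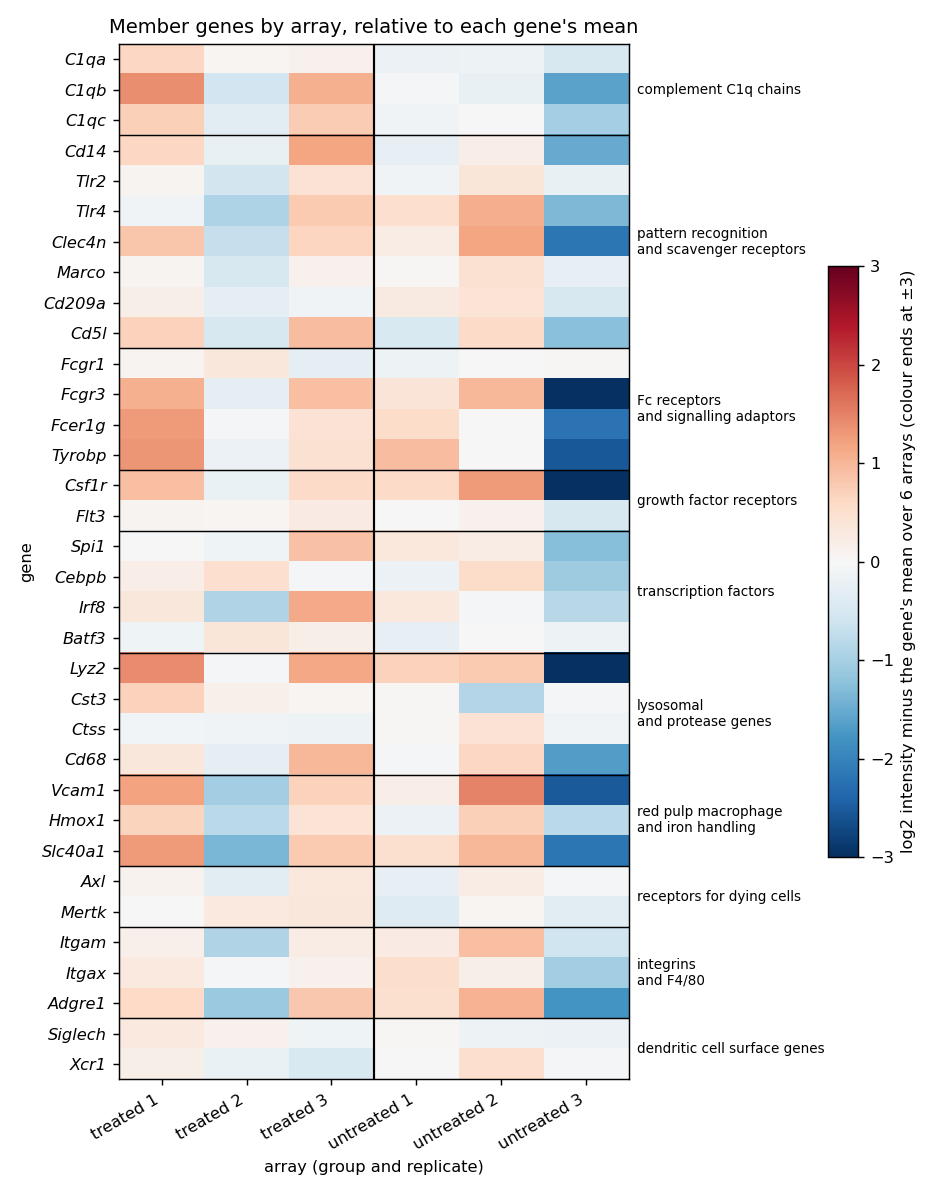
Each row is 1 of the 34 genes, in order of role, and each column 1 array; colour gives log2 intensity minus the mean of that gene over the 6 arrays, and the colour scale ends at 3 units. The column of untreated replicate 3 is the darkest blue, with the lowest value in 23 of 34 genes, and treated replicate 2 is the lowest treated array in 26 of 34.

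No gene of the group passed the test of treated against untreated Tregs across all genes. With limma and Benjamini-Hochberg adjustment over 18193 genes, 0 of 34 were higher and 0 lower in treated mice at an adjusted p of 0.05, where the share of all genes called was 0% in each direction. Their adjusted p values ran from 0.914 to 0.992. At an unadjusted limma p under 0.05 there was 1 higher gene, C1qa, against 1.82% of all genes, and there were 0 lower genes, against 3.17%. The treated values lay wholly above the untreated ones in 2 of 34 genes, C1qa and Cst3, against 5.61% of all genes, and wholly below in 0, against 5.24%. These shares are near the background.

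The size of the group difference, and its sign for some of the genes, depended on the arrays kept. Over all 6 arrays the difference, treated minus untreated, was above 0 in 27 of 34 genes, against 58.5% of all genes, with a median of +0.44 log2 units (+0.05 over all genes). Without untreated replicate 3 it was above 0 in 18 and below 0 in 16, against 59.1% of all genes above 0, and the median was +0.04 (+0.06 over all genes). Treated replicate 2, which shared the low pattern, was kept in that fit. With treated replicate 2 left out instead, 30 of 34 were above 0, with a median of +0.65. The share of all genes was not counted there, and a fit without both arrays was not run. Within the arrays that share a replicate number, the treated array was the higher in 28 of 34 genes for number 1 (50.2% of all genes), in 6 for number 2 (57.6%) and in 31 for number 3 (50.4%). Without untreated replicate 3, limma called 0 of 34 higher and 0 lower at an adjusted p of 0.05 (0.0055% and 0.17% of all genes) and 0 and 0 at an unadjusted p under 0.05 (1.78% and 4.82%). On those 5 arrays 2 of 34 lay wholly above in treated mice, C1qa and Cst3 (12.8% of all genes), and 3 wholly below, Cd209a, Ctss and Itgam (12.2%). The sign turned for 9 genes when untreated replicate 3 was left out, among them Csf1r, Fcgr3, Vcam1, Slc40a1 and Adgre1. For each of those named, treated replicate 2 was the lowest treated array and stayed in the fit. The share of all genes whose sign turned was not counted.

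**Figure D2:**
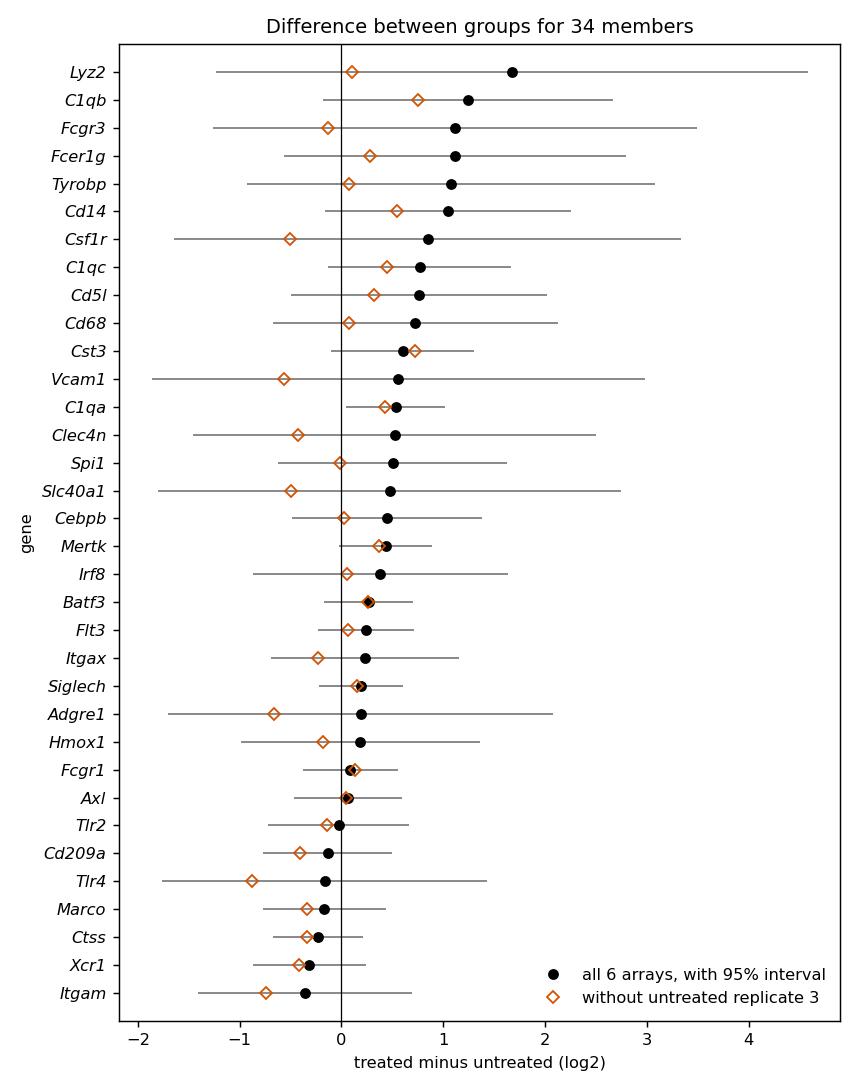
Treated minus untreated difference in log2 intensity for the 34 genes, ordered by size; filled points with bars are the fit of all 6 arrays with its 95% interval, and open diamonds the fit without untreated replicate 3. The diamonds lie around 0, with 18 above and 16 below, while 27 of the filled points lie above 0.

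The complement component C1q, which binds immune complexes and dying cells, is built from 3 chains that macrophages produce, encoded side by side on mouse chromosome 4 in the order C1qb, C1qc and C1qa. All 3 had higher means in treated mice. C1qa measured 7.32, 6.77 and 6.83 on the arrays of treated mice 1, 2 and 3 and 6.53, 6.55 and 6.24 on those of untreated mice 1, 2 and 3. Every treated value lay above every untreated one, and the difference was +0.53 (95% interval 0.04 to 1.02, 6.97 ± 0.31 against 6.44 ± 0.18, SD, n = 3 per group), with a limma adjusted p of 0.914. C1qb measured 9.91, 7.94 and 9.58 in the treated mice and 8.48, 8.31 and 6.92 in the untreated ones. Its groups overlapped, since treated replicate 2 lay between the untreated arrays, and the difference was +1.24 (95% interval −0.18 to 2.67, 9.14 ± 1.05 against 7.90 ± 0.86). C1qc measured 6.92, 5.90 and 6.97 in the treated mice and 6.10, 6.20 and 5.19 in the untreated ones, again with overlap through treated replicate 2, and differed by +0.77 (95% interval −0.13 to 1.67). Without untreated replicate 3 the differences were +0.43 for C1qa, +0.75 for C1qb and +0.45 for C1qc, so the sign of these chains did not rest on that array. C1qb was the single gene of the 34 whose linear group means differed by at least 2-fold (1 higher against 0.473% of all genes, and 0 lower against 1.13%), at 2.49-fold. Its probe set is of the kind that can bind related transcripts, as is another C1qb probe set, which differed by +1.26. The remaining, dimmer C1qb probe set differed by +0.95. It did not set untreated replicate 3 apart, at 5.23 beside 5.57 and 5.39 in untreated replicates 1 and 2.

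The promoters of 23 of the 34 genes were in the RefSeq-derived table of build GRCm38.p6, with 25 windows of 250 bases before to 50 after a start. They were searched on both strands for a pair of words. The word GAGGAA, chosen after the longer word below had been counted, holds the core of the sites bound by PU.1, the factor that Spi1 encodes. This word or its reverse complement TTCCTC stood in 14 of the 25 windows (56.0%) and in 28.3% of all 32851 windows. The longer word GAGGAAGT (reverse complement ACTTCCTC), which contains the shorter, stood in 2 of the 25 windows, those of C1qc and Ctss, and in 3.20% of all windows. Genes with the shorter word included ones that were low in untreated replicate 3, such as Fcgr3 and Cd68, and ones that were not, such as Ctss, Cst3 and Fcgr1. A match describes the letters and does not show binding. Shown are the 250 bases before the start of both C1q chains with a match and of the 2 other genes with a match that were lowest in untreated replicate 3 relative to its group. Sequences run 5′ to 3′ along the gene, and capitals mark GAGGAA or its reverse complement. The C1qb window is chr4:136886201-136886450, minus strand, the C1qc window chr4:136892915-136893164, minus strand, the Fcgr3 window chr1:171059404-171059653, minus strand and the Cd68 window chr11:69666171-69666420, minus strand. The word begins 30 bases before the start in C1qb, 193 in C1qc, 6 in Fcgr3 and 225 in Cd68.
C1qb: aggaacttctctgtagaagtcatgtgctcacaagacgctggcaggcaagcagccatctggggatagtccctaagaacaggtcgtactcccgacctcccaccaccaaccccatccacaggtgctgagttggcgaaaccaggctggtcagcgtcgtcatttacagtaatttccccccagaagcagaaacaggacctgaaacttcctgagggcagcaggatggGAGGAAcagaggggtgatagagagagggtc
C1qc: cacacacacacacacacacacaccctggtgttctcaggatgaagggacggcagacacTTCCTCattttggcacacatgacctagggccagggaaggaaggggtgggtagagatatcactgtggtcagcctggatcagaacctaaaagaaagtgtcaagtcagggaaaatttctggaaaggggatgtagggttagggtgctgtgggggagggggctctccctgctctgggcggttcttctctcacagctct
Fcgr3: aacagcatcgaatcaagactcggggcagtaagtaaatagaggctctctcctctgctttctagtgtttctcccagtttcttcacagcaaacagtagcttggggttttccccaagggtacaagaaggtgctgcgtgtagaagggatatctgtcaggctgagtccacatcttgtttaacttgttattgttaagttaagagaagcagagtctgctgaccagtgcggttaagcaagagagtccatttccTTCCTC
Cd68: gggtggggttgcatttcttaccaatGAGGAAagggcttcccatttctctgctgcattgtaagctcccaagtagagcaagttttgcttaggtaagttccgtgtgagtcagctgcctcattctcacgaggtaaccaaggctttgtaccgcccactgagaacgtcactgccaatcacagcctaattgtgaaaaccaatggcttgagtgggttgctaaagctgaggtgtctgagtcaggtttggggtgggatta

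Of the genes for Fc receptors and their signalling adaptors, Fcgr3, Tyrobp and Fcer1g were all far lower in untreated replicate 3 than elsewhere, and Fcgr1 was not. Fcgr3, a low-affinity receptor for IgG, measured 11.17, 9.81 and 10.99 on the arrays of treated mice 1, 2 and 3 and 10.49, 11.10 and 7.04 on those of untreated mice 1, 2 and 3. Untreated replicate 3 was 13.5-fold below the mean of the other untreated arrays, and the rest overlapped. Tyrobp, the adaptor DAP12, measured 10.49, 8.98 and 9.63 in the treated mice and 10.09, 9.15 and 6.63 in the untreated ones, 7.95-fold lower in untreated replicate 3 than in its group. Fcer1g, the common gamma chain of Fc receptors, measured 9.68, 8.34 and 8.84 in the treated mice and 8.93, 8.40 and 6.17 in the untreated ones, a gap of 5.65-fold. The group differences of Fcgr3, Tyrobp and Fcer1g were +1.12, +1.08 and +1.11, and −0.13, +0.08 and +0.28 without untreated replicate 3. Fcgr1, the high-affinity IgG receptor, ran level at 7.13 to 7.74 on its chosen probe set. A second, dimmer Fcgr1 probe set ran otherwise, at 6.04, 4.83 and 7.53 in treated and 5.56, 6.44 and 4.87 in untreated mice, low on the same arrays as Fcgr3.

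Csf1r, the receptor for the growth factor on which macrophages depend, measured 12.29, 11.18 and 11.96 on the arrays of treated mice 1, 2 and 3 and 11.96, 12.66 and 8.27 on those of untreated mice 1, 2 and 3. On 5 arrays it was bright and overlapping between groups, and untreated replicate 3 lay 16.5-fold below its group. The difference was +0.85 (95% interval −1.65 to 3.34, limma adjusted p = 0.929), and −0.50 without that array. A second probe set of Csf1r repeated the gap, with 7.69 in untreated replicate 3 and 9.66 to 10.75 elsewhere, and another, dim one did not, at 6.45 to 7.58 on all arrays. Flt3, the growth factor receptor of dendritic cell precursors, measured 7.17, 7.16 and 7.34 in the treated mice and 7.08, 7.23 and 6.63 in the untreated ones. Untreated replicate 3 was again the lowest.

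Among lysosomal genes, Lyz2 and Ctss were both bright and had different profiles. Lyz2, the lysozyme of macrophages and granulocytes, measured 13.42, 11.93 and 13.14 on the arrays of treated mice 1, 2 and 3 and 12.68, 12.77 and 8.01 on those of untreated mice 1, 2 and 3. Untreated replicate 3 was 26.2-fold below the other untreated arrays, the widest gap of the 34 genes, while the other 5 arrays overlapped. The difference was +1.68 (95% interval −1.23 to 4.58, limma adjusted p = 0.914) and +0.11 without that array. Lyz2 has a close copy, Lyz1, and the probe set may not tell them apart. Ctss, the protease cathepsin S, measured 13.02, 12.98 and 12.94 in the treated mice and 13.12, 13.52 and 12.98 in the untreated ones. Its values stayed within 0.58 log2 units over all arrays, and untreated replicate 3 did not stand apart. Cst3, the protease inhibitor cystatin C, measured 11.78, 11.26 and 11.14 in the treated mice and 11.13, 10.22 and 11.03 in the untreated ones. Here untreated replicate 2 was the lowest, all treated values lay above all untreated ones, and the difference was +0.60 (95% interval −0.10 to 1.30, limma adjusted p = 0.914) or +0.72 without untreated replicate 3 and +0.31 without untreated replicate 2. Cd68, a lysosomal membrane glycoprotein, measured 7.99, 7.37 and 8.64 in the treated mice and 7.61, 8.25 and 5.97 in the untreated ones, with untreated replicate 3 lowest by 1.40 log2 units.

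**Figure D3:**
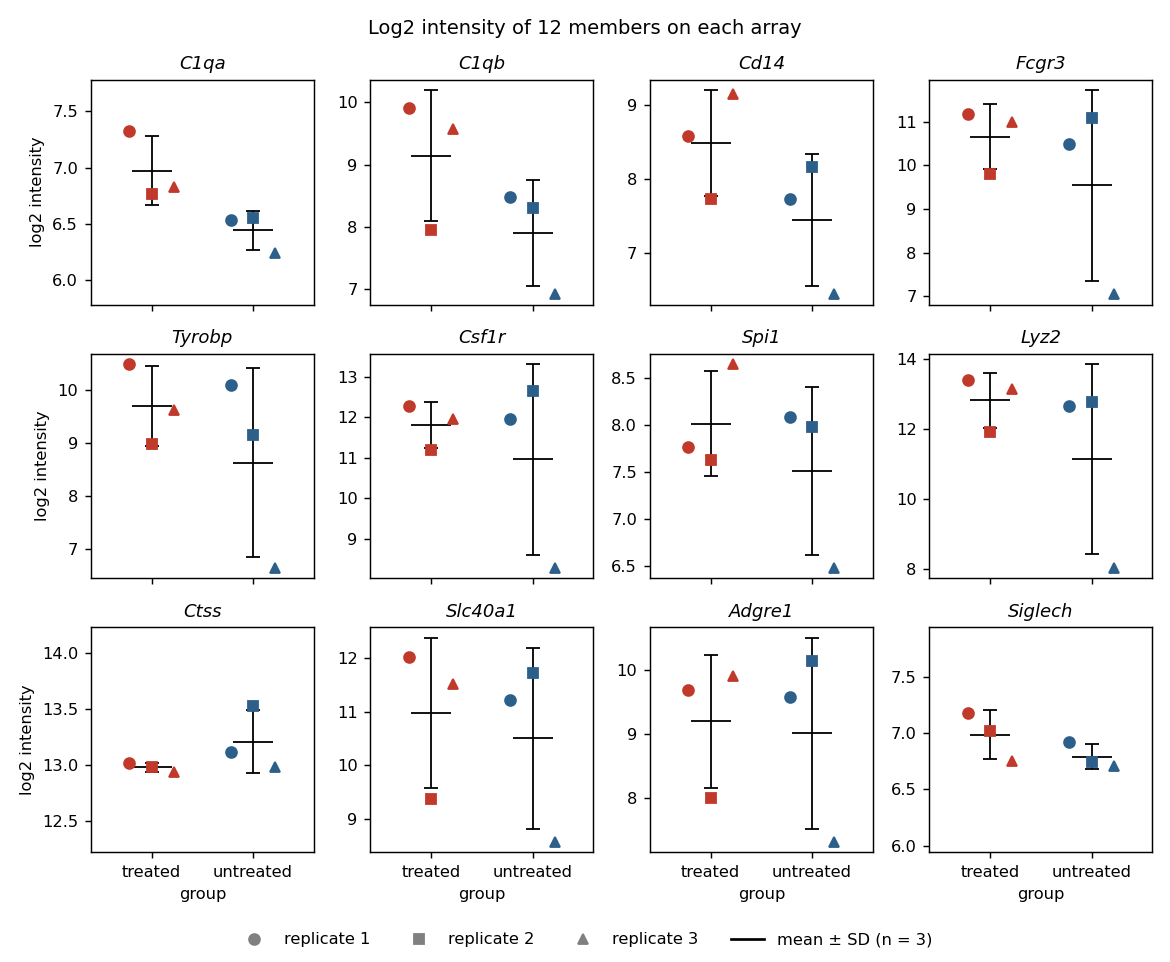
Log2 intensity of 12 of the genes on each array, with treated mice in red and untreated mice in blue, 1 marker shape per replicate number, and black bars for the mean ± SD of 3 mice; the vertical scale differs between panels. Untreated replicate 3 (blue triangle) is the lowest point in 11 panels and lies within the others for Ctss.

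Genes of red pulp macrophages were low in both treated replicate 2 and untreated replicate 3. Slc40a1, the iron exporter ferroportin, measured 12.02, 9.37 and 11.53 on the arrays of treated mice 1, 2 and 3 and 11.22, 11.72 and 8.56 on those of untreated mice 1, 2 and 3. It was 5.29-fold lower in treated replicate 2 than in the other treated mice and 7.51-fold lower in untreated replicate 3 than in the other untreated mice, and the groups overlapped (+0.47, 95% interval −1.80 to 2.74). A second Slc40a1 probe set had both low arrays too, at 7.83 in treated replicate 2 and 7.45 in untreated replicate 3 beside 8.13 to 8.99 elsewhere, and a group difference of −0.17. Vcam1, an adhesion molecule of these macrophages, measured 11.04, 8.79 and 10.52 in the treated mice and 10.03, 11.32 and 7.32 in the untreated ones, lower by 3.96-fold and 10.2-fold on the same arrays. The other 2 probe sets of Vcam1 were dimmer and level, at 6.65 to 7.03. Hmox1, which breaks down heme, measured 8.09, 6.60 and 7.83 in the treated mice and 7.24, 8.13 and 6.60 in the untreated ones, with the same 2 arrays lowest. Without untreated replicate 3 all 3 genes of this set had lower treated means, with differences of −0.50 for Slc40a1, −0.56 for Vcam1 and −0.18 for Hmox1. The C1q chains had the opposite sign in that fit. Treated replicate 2, the lowest treated array for all 3 genes, was kept in it. With treated replicate 2 left out instead, the differences were +1.27, +1.22 and +0.64 in the same order, the same sign as the C1q chains. The contrast between the sets was not tested.

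Adgre1, the gene of a classical surface marker of mouse macrophages, had the profile of the red pulp genes. Adgre1 measured 9.69, 8.0 and 9.90 on the arrays of treated mice 1, 2 and 3 and 9.58, 10.14 and 7.30 on those of untreated mice 1, 2 and 3. Treated replicate 2 and untreated replicate 3 were lowest, and the rest overlapped. The difference of +0.19 (95% interval −1.70 to 2.08) became −0.66 without untreated replicate 3 and +0.79 without treated replicate 2. Itgam and Itgax encode CD11b and CD11c, the surface proteins against which the cells were sorted. Itgam measured 5.90, 4.84 and 5.96 in the treated mice and 5.99, 6.64 and 5.15 in the untreated ones, a dim signal lowest in treated replicate 2. Itgax measured 7.46, 7.11 and 7.29 in the treated mice and 7.69, 7.35 and 6.12 in the untreated ones, with untreated replicate 3 lowest by 0.99 log2 units. The groups overlapped for both integrins.

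Receptors for microbes and debris showed both kinds of profile. Cd14, the endotoxin co-receptor, measured 8.58, 7.73 and 9.15 on the arrays of treated mice 1, 2 and 3 and 7.72, 8.16 and 6.44 on those of untreated mice 1, 2 and 3. Untreated replicate 3 was lowest, the groups overlapped, and the difference was +1.04 (95% interval −0.16 to 2.25) or +0.55 without that array. Clec4n, the lectin Dectin-2, measured 9.85, 8.32 and 9.66 in the treated mice and 9.23, 10.19 and 6.84 in the untreated ones, 7.31-fold lower in untreated replicate 3 than in its group. The Clec4n probe set is of a kind that can bind more than 1 transcript, and its other probe set differed by +0.15 against +0.53. Cd5l, a secreted protein of tissue macrophages, measured 9.09, 7.93 and 9.34 in the treated mice and 7.94, 8.99 and 7.16 in the untreated ones and differed by +0.76, or by +0.32 without untreated replicate 3 and +1.24 without untreated replicate 2. The endotoxin receptor gene Tlr4 was dim, at 4.18 to 6.62, and lowest in untreated replicate 3. The 3 further Tlr4 probe sets had the opposite sign to its group difference of −0.16. Untreated replicate 3 differed from the mean of the other untreated arrays by −2.15 on the chosen probe set and by −1.05, +0.24 and −0.25 on the further ones. For treated replicate 2 against the other treated arrays these values were −1.26 and −0.53, +1.35 and +0.22. The lipoprotein receptor gene Tlr2 spanned 6.94 to 7.95, the scavenger receptor gene Marco 5.65 to 6.59 and the lectin gene Cd209a 6.10 to 6.99, with differences of −0.03, −0.17 and −0.14. Marco measured 6.21, 5.65 and 6.26 in the treated mice and 6.16, 6.59 and 5.87 in the untreated ones. The second, dimmer Marco probe set differed by +0.08.

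Of the transcription factors, Spi1 measured 7.76, 7.63 and 8.65 on the arrays of treated mice 1, 2 and 3 and 8.08, 7.97 and 6.47 on those of untreated mice 1, 2 and 3. Untreated replicate 3 was the lowest by 1.16 log2 units and the groups otherwise overlapped, with a difference of +0.50 (95% interval −0.62 to 1.63) and −0.01 without that array. Cebpb, a factor of monocytes and granulocytes, measured 8.06, 8.37 and 7.84 in the treated mice and 7.70, 8.43 and 6.80 in the untreated ones. It was lowest in untreated replicate 3, while treated replicate 2 was the highest treated array. A second, dimmer Cebpb probe set did not set untreated replicate 3 apart, at 4.59 beside 4.54 and 4.72 in untreated replicates 1 and 2. Irf8, a factor of monocytes, dendritic cells and B cells, measured 8.85, 7.59 and 9.64 in the treated mice and 8.81, 8.45 and 7.66 in the untreated ones. For Irf8 treated replicate 2 and untreated replicate 3 were nearly level and lowest, and a second Irf8 probe set pointed the other way (−0.25 against +0.38). Batf3, needed for cross-presenting dendritic cells, measured 6.57, 7.08 and 6.88 in the treated mice and 6.47, 6.70 and 6.55 in the untreated ones. Its difference was +0.27.

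Siglech and Xcr1, markers of dendritic cell subsets, lay low, between 5.33 and 7.18, and did not set untreated replicate 3 apart. Siglech, a lectin of plasmacytoid dendritic cells, measured 7.18, 7.02 and 6.75 on the arrays of treated mice 1, 2 and 3 and 6.92, 6.74 and 6.71 on those of untreated mice 1, 2 and 3, the narrowest span of the 34 genes at 0.47 log2 units. Xcr1, the chemokine receptor of cross-presenting dendritic cells, measured 5.98, 5.60 and 5.33 in the treated mice and 5.82, 6.29 and 5.74 in the untreated ones, with a difference of −0.31 (95% interval −0.87 to 0.24). Axl and Mertk, receptors through which macrophages take up dying cells, did not set untreated replicate 3 apart either. Axl spanned 6.41 to 7.06 and differed by +0.06. Mertk measured 6.22, 6.52 and 6.57 in the treated mice and 5.85, 6.29 and 5.88 in the untreated ones, with 2 of the 3 treated values above all untreated ones, and differed by +0.43 (95% interval −0.02 to 0.89, limma adjusted p = 0.914).

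Further genes of the same pathways had a similar array profile. Of 42 other macrophage and monocyte genes measured, 0 passed over all genes, with 0 at an unadjusted limma p under 0.05 in either direction. Their mean was 8.73, 7.92 and 8.85 in treated and 8.47, 8.71 and 7.39 in untreated mice, and untreated replicate 3 was at least 1 log2 unit below its group in 21 of 42 (4.9% of all genes). The difference was above 0 in 32 of 42 (58.5% of all genes), with a median of +0.26, and in 17 of 42 without untreated replicate 3 (59.1% of all genes), with a median of −0.08. Trem2, a lipid receptor of macrophages, differed by +0.43, Aif1, which encodes IBA1, by +0.59 and the complement regulator properdin, Cfp, by +0.49. These 3 had the smallest p of that list. Of 26 phagocyte signalling and oxidase genes 0 passed and 0 reached an unadjusted p under 0.05, with 13 so far below their group in untreated replicate 3. The smallest p belonged to Pirb (+1.11), an inhibitory receptor, Tlr13 (+1.19), a sensor of bacterial RNA, and the kinase gene Fgr (+0.80). Without untreated replicate 3 their differences were +0.64, +0.83 and +0.33.

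Among 26 other dendritic cell genes 0 passed over all genes, and 3 were lower in treated mice at an unadjusted limma p under 0.05, Ly6d (−1.84), Spib (−2.08) and Dpp4 (−0.98), against 3.17% of all genes. Without untreated replicate 3, 2 of the 26 passed over all genes, both lower in treated mice: Ly6d differed by −2.58 (limma adjusted p = 0.0182) and Spib by −3.13 (limma adjusted p = 0.00477), where 0.17% of all genes were called lower. Dpp4 then differed by −1.23 (limma adjusted p = 0.686). Ly6d and Spib are also B cell genes. They measured 9.11 and 8.67 (Ly6d) and 9.46 and 9.65 (Spib) in untreated replicates 1 and 2, and 6.67 and 6.42 in untreated replicate 3, beside treated values of 6.05 to 6.49. Ms4a1, encoding CD20, was 12.95, 12.93 and 8.97 in untreated replicates 1, 2 and 3 and 6.30 to 6.66 in treated mice, and the B cell gene Cd79b 11.59, 10.86 and 9.04 against 7.39 to 8.04. The part of B cell transcripts in these values was not tested. Untreated replicate 3 was at least 1 log2 unit below its group in 10 of the 26 genes (4.9% of all genes), among them Tcf4, a factor of plasmacytoid dendritic cells and B cells, which measured 9.28, 10.42 and 6.17 in untreated and 7.89 to 8.55 in treated mice. The lectin gene Clec4a2 measured 9.42, 10.28 and 6.26 in untreated and 8.99 to 10.13 in treated mice.

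Markers of other blood cells were set beside the macrophage genes, array by array. The mean of 15 neutrophil genes was 11.24, 9.89 and 10.78 in treated and 10.73, 10.70 and 6.43 in untreated mice, so untreated replicate 3 and then treated replicate 2 were lowest there too. The mean of 16 erythroid and platelet genes was 9.0, 8.20 and 8.30 against 9.01, 9.08 and 7.06. The mean of 15 B cell genes was 6.68, 6.58 and 6.54 against 9.70, 9.72 and 7.06, a profile that, unlike the macrophage one, put all treated arrays lowest. T cell genes ran the other way within the untreated mice: 13 of them averaged 11.00, 10.45 and 11.62 there, beside 11.15, 11.23 and 11.71 in treated mice. The 10 Treg genes averaged 11.04, 10.68 and 11.56 in untreated mice, beside 11.26, 11.30 and 11.99. Untreated replicate 3 was thus the highest untreated array for both T cell lists. The mean of 10 NK cell genes was 8.13, 7.97 and 7.77 in treated and 8.28, 8.51 and 7.17 in untreated mice, again lowest in untreated replicate 3. The 13 stromal and endothelial genes were level at 5.75 to 6.13. The lowest linear RMA intensity of any probe set was 5.47, so a value above 0 does not show that a marker was present. The part of these other cells in the macrophage values was not tested.

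**Figure D4:**
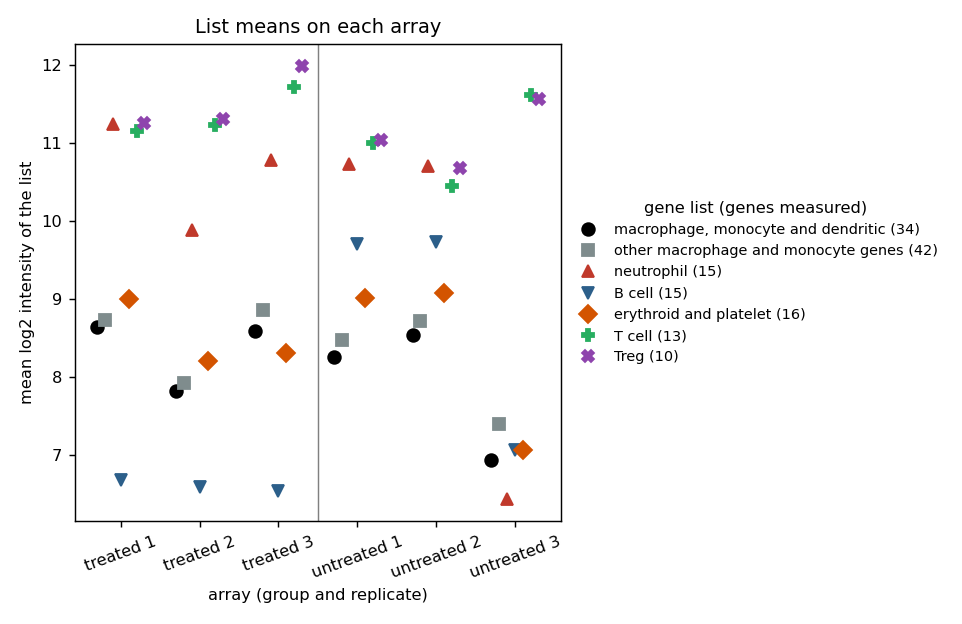
Mean log2 intensity of 7 gene lists on each array, with 1 symbol per list and the number of genes measured in the legend. The macrophage, monocyte and dendritic genes (black) are lowest at 6.94 in untreated replicate 3, beside neutrophil genes at 6.43, while T cell genes reach 11.62 there.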

How the data were processed

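The submitters' processing notes and the series' design text name RMA in GenePattern as the authors' processing of the Affymetrix M430v2 arrays. No version of it is given. RNA was amplified in 2 rounds per the labels' protocols. The values as deposited are linear RMA intensity (5.47 to 29584.9), and log2 was taken here with no further scaling. Of 45101 probe sets, 64 controls were left out. Of the rest, 34945 carried 1 gene symbol in the platform annotation (updated through gene identifiers for 34741), 932 several and 9160 none, and no gene was named from the others.

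The comparison of treated with untreated mice used limma 3.58.1 under R 4.3.3 (lmFit, then eBayes, on 45037 probe sets; Benjamini-Hochberg adjustment on 18193 genes; threshold 0.05). The fit was tested on simulated data with independent noise for each gene and no shift of genes together on an array. That test does not cover arrays that stand apart, as here. The genes and lists were chosen with earlier results of these data known. Every gene of the group is described, in full for up to 3 per role with the smallest p and for 10 fixed ones, and from each pathway list the 3 genes with the smallest p are named; where further genes are given array by array, they were added after their values were seen. Counts of genes low on 1 array were also formed after the values were seen. Alternatives covered the design, normalization, dim probe sets, choice of probe set, variance model, weights and each array left out. A motif search planned on protein sequences was not run. Figures used matplotlib 3.10.9 in Python 3.11.15.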

Additional observations from a re-analysis of the deposited data

How the results depend on the processing

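No gene of the group passed under any of the alternatives tested with limma, and the lowest adjusted p among them was 0.604. The replicate number as a block gave 0 of 34 called and a median difference of +0.44, and changed no other call. Deviations from the group means correlated at 0.51, 0.01 and 0.10 between the arrays of numbers 1, 2 and 3. With so few arrays per group, these values cannot show whether same-numbered arrays were handled as pairs. A term for both replicate 3 arrays, whose file numbers stand apart, also gave 0 of 34 called. Each replicate number holds 1 treated and 1 untreated array, so neither this term nor the block can move a difference. The 27 of 34 above 0 and the median of +0.44 were therefore fixed in advance, and only the p-values could change. Over all genes, median centring called 0 higher and 1 lower, array weights 1 and 4, and a fold of at least 2 in linear means, with no test, 86 and 206, with 1 of the 34. Leaving out 1 array at a time, counts over all genes ran from 0 to 1 higher and 0 to 31 lower, the highest of each without untreated replicate 3. The number of the 34 above 0 ran from 18 to 31 and their median from +0.04, without untreated replicate 3, to +0.65, without treated replicate 2. Within replicate number 2, an alternative added after seeing the data, 6 of 34 were above 0 with a median of −0.61, and within number 3 the median was +1.51. The sign of 17 genes turned in at least 1 of the fits without 1 array. Their differences in those fits ran from −0.25 to 0.25 for Tlr2, −0.88 to 0.34 for Tlr4, −0.43 to 1.24 for Clec4n, −0.34 to 0.025 for Marco, −0.41 to 0.034 for Cd209a, −0.058 to 0.25 for Fcgr1, −0.13 to 1.89 for Fcgr3, −0.50 to 1.69 for Csf1r, −0.014 to 0.79 for Spi1, −0.092 to 0.93 for Irf8, −0.56 to 1.44 for Vcam1, −0.18 to 0.64 for Hmox1, −0.50 to 1.27 for Slc40a1, −0.079 to 0.24 for Axl, −0.74 to 0.0078 for Itgam, −0.23 to 0.55 for Itgax and −0.66 to 0.79 for Adgre1. Tlr2 also turned with age as a covariate (+0.12) and with array weights (+0.13), and Tlr4 with the mean of its probe sets (+0.12). The other 17 kept their sign in every alternative that was fitted gene by gene. A total of 23 of the 34 exceeded log2 7 on at least 3 arrays, and differences of the dimmer 11 are the least certain.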

Other observations

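Some macrophage-associated genes outside the main list were not low in untreated replicate 3. Lgmn, a lysosomal protease gene, measured 9.06, 8.11 and 10.36 in untreated replicates 1, 2 and 3 and 9.29, 9.33 and 10.75 in treated ones. Cd80, a costimulatory ligand, measured 5.87, 5.77 and 7.56 in the untreated mice, Ctsd, the protease cathepsin D, 10.77, 10.46 and 11.32, and the transcription factor gene Maf 11.75, 11.46 and 12.28. In these 4 genes untreated replicate 3 was the highest untreated array, as it was for the mean of the T cell genes. All genes of this paragraph were picked with their values in view. Csf2rb, a cytokine receptor chain, had a wider gap in untreated replicate 3 than any of the 34 genes, with 10.80, 11.90 and 6.03 in untreated replicates 1, 2 and 3, beside 11.19, 8.79 and 11.77 in treated ones. Spic, the transcription factor of red pulp macrophages, was dim and low on the 2 arrays where Slc40a1 was low, at 6.37, 4.16 and 7.17 in treated and 5.36, 5.67 and 3.93 in untreated mice. Cd36, a scavenger receptor, measured 4.15 to 5.09 in treated mice, 6.57 and 7.58 in untreated replicates 1 and 2 and 3.96 in untreated replicate 3.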
